A study of Mus musculus with 3 samples.

Results

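The regions described here are 422 of the 819 regions in the list of ChIP-seq peaks deposited under the label SUN1/2DKO. They were chosen by 2 readouts of the lists themselves. Each shares no bp with any of the 521 regions in the list labelled WT, and each lies within 100 kb of at least one other region of its own list. Of the other regions of the SUN1/2DKO list, 237 share bp with the list labelled WT (called shared regions below) and 160 are found in this list alone with no other region of it within 100 kb (isolated regions). In the list labelled WT the same rule finds 59 regions. Absence from the other list and nearness to a neighbour are therefore the rule and not results. The study counts more peaks under each label than these lists hold, so presence and absence refer only to the lists used here.

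By the labels, both lists come from ChIP with an H3K4me3 antibody in PEMs, macrophages elicited into the mouse peritoneum, with 1 library from WT cells and 1 from cells lacking SUN1 and SUN2, proteins of the inner nuclear membrane. No list of the WT IgG library was used. As each label has 1 library, replicate error is unknown and no p-value is given. In the SUN1/2DKO library 12255444 tags (aligned reads) were used against 14285407 in its control, and in the WT library 10706595 against 10034265. The intervals given below cover counting error only. As general background, H3K4me3 marks the promoters of active genes, and a list of its sites is normally spread along gene-rich chromosome arms. TEAD4, the name given to the ChIP sample in the header of the SUN1/2DKO list, is a DNA-binding transcription factor of the Hippo pathway. FAM181A is the name in the header of the WT list.

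Many positions lie where the mouse has none. Of the 422 clustered regions, 84 lay on chromosomes 20, 21 and 22, which the mouse does not have, and a further 17 lay beyond every annotated gene that RefSeq gives for the mouse chromosome of that name (GRCm38.p6). Together these were 23.9% of the clustered regions. The notes of the submitters name the builds hg38 and mm10 without saying which list used which. The last clustered region on chromosome 4 ended at 191033115, the last on chromosome 10 at 135472807 and the last on chromosome Y at 59033338. By the known lengths of the human chromosomes, used here as background, these ends lie past the ends of chromosomes 4, 10 and Y in hg38 and inside those of the earlier human build hg19, which the notes do not name. Positions below are therefore given as the list has them, with the build not stated in the header. No gene, exon, promoter, centromere or repeat annotation of that build was used, no sequence was read, and nothing below is a measure of SUN1/2 loss, since the labels, the headers and the positions do not match.

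Chromosome 21 held 70 of the clustered regions (16.6%, against 10.9% of all regions of the list), and chromosome 1 held 58 (13.7% against 9.40%). Chromosome 4 held 43 (10.2% against 10.9%), chromosome 9 held 42 (9.95% against 7.69%) and chromosome Y held 34 (8.06% against 7.33%), so that on chromosomes 4 and Y the share was near that of the whole list. Chromosome 7 followed with 24 (5.69% against 5.49%) and chromosome 19 with 20 (4.74% against 3.91%), and each of the other chromosomes held 17 or fewer. Chromosome 13 held 0, although 6 regions of the list lay there. On chromosome 21 the clustered regions made up 78.7% of the 89 regions of the list, and on chromosome 1 they made up 75.3% of 77. On chromosome 4, which also has 89 regions, they made up 48.3%, and 42 of its regions were shared with the list labelled WT. Over the whole list the clustered regions were 422 of 819, so the share on chromosome 4 was near that of the list. On chromosome 2 the share was 26.1% of 46 regions.

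**Figure D1:**
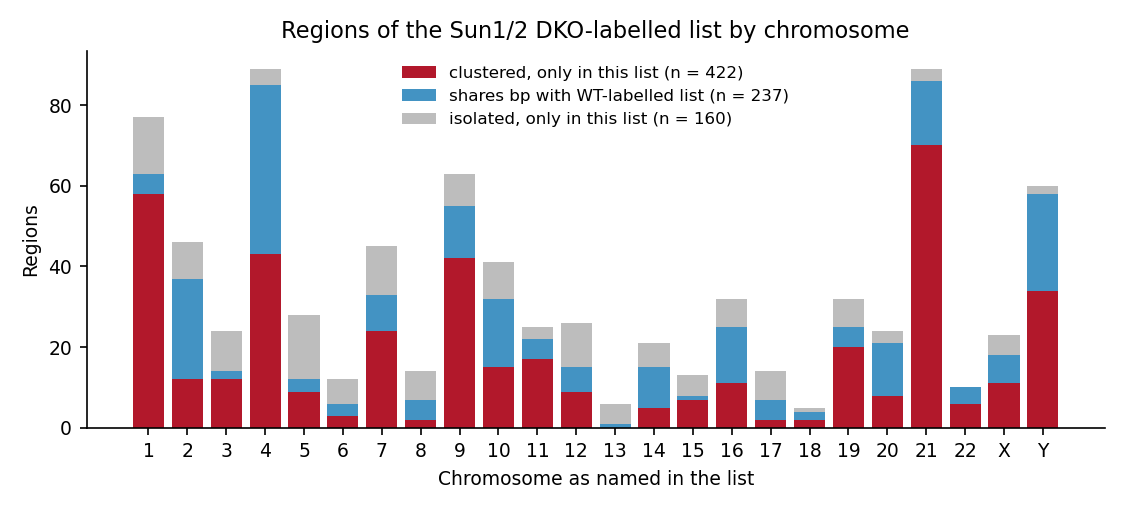
Number of regions of the SUN1/2DKO-labelled list (vertical axis) on each chromosome as named in the list (horizontal axis), stacked as clustered regions found only in this list, regions that share bp with the WT-labelled list, and isolated regions. Chromosome 21 holds the most clustered regions (70), and chromosomes 4 and 21 have the most regions in all (89 each).

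Joined at gaps of at most 100 kb, the clustered regions fell into 77 clusters, which also held 197 shared regions. A cluster spanned a median of 58.1 kb (quartiles 30.8 and 130.6 kb), from 1.11 kb to 545.7 kb. The summed span was 6.55 Mb, of which the clustered regions themselves covered 631.3 kb. Of the clusters, 10 held a single region found only in this list beside shared ones, 40 held 2 to 5, 15 held 6 to 9 and 12 held 10 or more. Those 12 held 187 of the 422 regions. The 10 clusters with most members held 165 regions, or 39.1%. As these clusters were picked for holding most members, no interval is given. This share rests on the gap limit, and was 22.9% at 10 kb and 53.4% at 200 kb.

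The cluster with most members, 34 regions beside 6 shared ones, lay at chr21:9652417-10198148 and was also the one with the largest span. Its members held between 25.3 and 241.5 tags per kb with a median of 33.4, and their fold enrichment over the control ran from 3.74 to 10.08 with a median of 5.45. Tags per kb is the count of ChIP tags in a region divided by its length, and fold enrichment is the ratio that the peak caller gives over the local background of the control. Another 3 clusters of the list lay in the same stretch of chromosome 21. They were at chr21:9438897-9487984 with 3 members, at chr21:10697907-10857270 with 18 and at chr21:11031405-11186905 with 13. Over the 1748 kb from the first to the last of these 4 clusters there were 68 members, 14 shared regions and 18 regions of the list labelled WT. Members outnumbered shared regions in this stretch, as they did over all 77 clusters, with 422 members against 197 shared regions.

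Chromosome 1 held a stretch of the same kind with few shared regions. The absence of its members from the list labelled WT is the rule, and over the whole list 237 of 819 regions were shared. In 1009 kb, from 142535418 to 143544475, 4 clusters held 53 members and 1 shared region, and the list labelled WT had 3 regions there. The cluster at chr1:142807995-142967755 held 17 members, no shared region and no region labelled WT. No cluster held a longer run of members without a shared region between them than these 17. Their density was even, from 29.3 to 52.5 tags per kb with a median of 37.6, and their fold enrichment ran from 3.73 to 7.90 with a median of 4.87. The cluster at chr1:143448720-143544475 held 14 members, likewise without a shared or a WT-labelled region, at a median of 32.2 tags per kb and a fold enrichment of 5.30. The cluster at chr1:142535418-142655540 held 14 members and the single shared region of the stretch, with medians of 34.9 tags per kb and 5.56. In the cluster at chr1:143121930-143281144, which held 8 members and 2 regions labelled WT that overlap none of them, 1 member of 174.0 tags per kb stood apart from a median of 26.4.

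On chromosome 4 the members were interleaved with shared regions. The cluster at chr4:49093287-49337815 held 18 members and 18 shared regions in 244.5 kb, and the list labelled WT had 23 regions there. The median density of the members was 50.1 tags per kb, the highest of the 32 clusters with 5 or more members, and that of the shared regions in the same cluster was 72.2. The cluster at chr4:190845629-191033115, which ends at the last position of the list on chromosome 4, held 12 members and 11 shared regions. The median gap between its neighbours was only 744 bp. The median density was 33.4 tags per kb in its members and 71.2 in its shared regions. In both clusters the shared regions were the denser ones by their medians.

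Chromosome Y held the densest members. In the cluster at chr Y from 13252099 to 13490277, with 13 members and 5 shared regions in 238.2 kb, the members ran from 22.4 to 386.8 tags per kb around a median of 29.5. The first 10 regions of the cluster were all members of between 22.4 and 35.4 tags per kb. The cluster at chr Y from 9914352 to 10044970 held 11 members and 10 shared regions, with medians of 42.4 and 86.3 tags per kb. The cluster from 58971949 to 59033338, which ends at the last position of the list on that chromosome, held 8 members and 4 shared regions with a median gap of 492 bp.

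Of the remaining clusters among the 10 with most members, the one at chr9:66779674-66863105 held 12 members and 4 shared regions. Its members held from 22.7 to 106.4 tags per kb with a median of 30.97, and their median fold enrichment was 6.01. By span, the 5 longest clusters were the one on chromosome 21 named first, chr7:61545157-61799289 (254.1 kb), and the clusters of chromosome 4 from 49093287, of chromosome Y from 13252099 and of chromosome 4 from 190845629. The cluster on chromosome 7 held only 8 regions, 7 of them members, with a median gap of 11638 bp and the widest gap of any cluster, 99643 bp. A long span therefore did not go with many regions in every case.

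**Figure D2:**
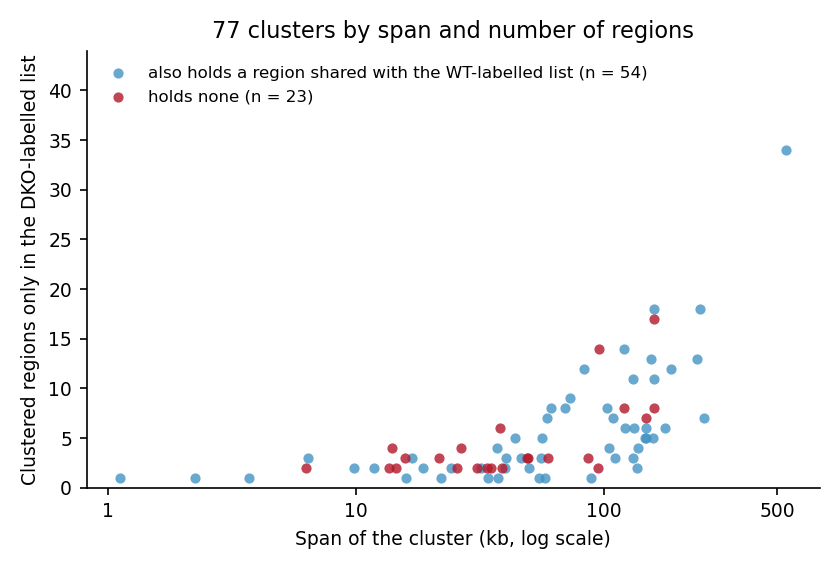
Each of the 77 clusters by its span in kb (horizontal axis, log scale) and the number of its regions found only in the SUN1/2DKO-labelled list (vertical axis), coloured by whether it also holds a region shared with the WT-labelled list. The cluster with 34 such regions spans 545.7 kb, and the 23 clusters without a shared region hold at most 17.

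Of the 77 clusters, 54 also held at least one shared region, or 70.1%, and 318 of the 422 members lay in them. The rule fixes part of this share, since each of the 10 clusters with a single member must hold a shared region, so it is a description. It was 65.7% when the neighbour also had to be absent from the list labelled WT, and 54.9% at a gap limit of 10 kb. The other 23 clusters, with 104 members, held no shared region, and 17 of these, with 78 members, had no region of the list labelled WT anywhere in their span. The clusters at chr9:68393400-68513817, with 8 members, and at chr3:75692415-75839977, with 7, were among those 17. Members in clusters without a shared region had a median of 32.2 tags per kb and a fold enrichment of 5.73, against 33.2 and 7.11 for members in clusters with one. The densities were thus close and the fold enrichments less so. In the 43 clusters of 5 or more regions, members made up 61 of the 86 regions at the ends (70.9%) and 289 of the 440 between them (65.7%).

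The nearest region labelled WT lay a median of 14421 bp from a member, from 41 bp to 13.3 Mb. It lay within 1 kb of 42 members, within 10 kb of 166 and within 100 kb of 335 (79.4%). Of the 160 isolated regions, 6 (3.75%) had a region labelled WT within 100 kb. The rule bears on these distances, since members must have a neighbour in their own list and that neighbour may itself be shared. The member nearest to a region labelled WT without touching it was at chr4:49139708-49140593. Inside the cluster spans lay 233 regions labelled WT, of which 199 share bp with a region of the SUN1/2DKO list and 34 do not. Those 34 had a median of 29.4 tags per kb, which is 2.75 tags per kb for every 1000000 tags used in that library, and on the same scale the members had 2.68 in theirs. Both sets passed the same calling threshold in one list and were not called in the other, so their likeness in density may be set by the calls and is given as a description. The shared regions in the same clusters were denser, at 4.91 on that scale. The lists made by exchanging ChIP and control, of 15 regions for the SUN1/2DKO library and 74 for WT, had 0 regions inside a cluster span. The spans summed to only 6.55 Mb, a small part of a genome, and were built where ChIP exceeded control. So few exchanged regions could miss them by position alone, and no conclusion is drawn from this 0.

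Inside the clusters, neighbouring regions were a median of 4225 bp apart. The median was 1760 bp at a gap limit of 10 kb and 7081 bp when regions within 1 kb of each other were merged first. Of 542 gaps, 148 (27.3%) were of at most 1 kb, 238 (43.9%) of more than 1 and up to 10 kb, 134 (24.7%) of more than 10 and up to 50 kb and 22 (4.06%) of more than 50 kb. The smallest was 4 bp, on chromosome 4. The limit of 100 kb thus decided few memberships, since 409 of the 422 members (96.9%) had a neighbour within 50 kb and 332 (78.7%) within 10 kb. The isolated regions had their nearest neighbour at a median of 3.14 Mb. Just inside the limit were 2 regions of chromosome 9, chr9:42818742-42819536 and chr9:42913105-42913471, with 93568 bp between them and 25.2 and 27.2 tags per kb. Just outside were 2 regions of chromosome X, from 58113854 to 58116334 and from 58217260 to 58218873, with 100925 bp between them and 29.0 and 26.6 tags per kb. The next on each side were chr7:57900668-57902134 inside, with 21.8 tags per kb and a score of 51.4, and chr5:1326314-1329268 outside, with 55.5 tags per kb and a score of 525.4.

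**Figure D3:**
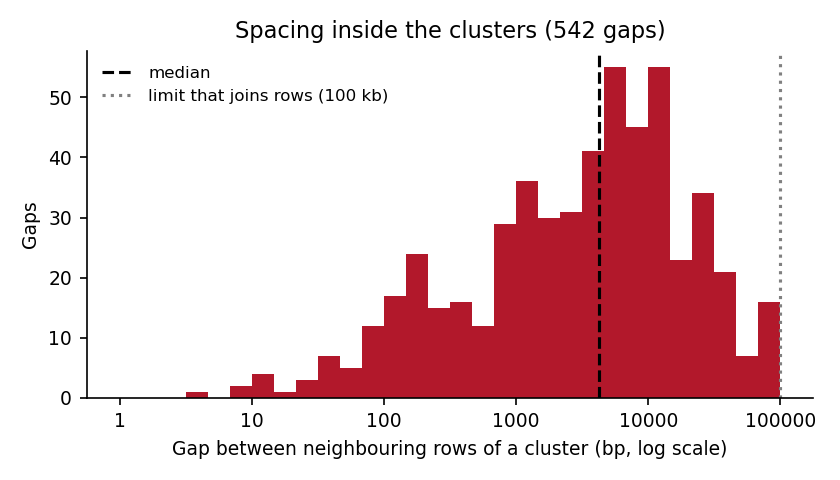
Number of gaps (vertical axis) between neighbouring regions of a cluster by their size in bp (horizontal axis, log scale), with the median of 4225 bp as a dashed line and the 100 kb limit that joins regions as a dotted line. Most of the 542 gaps lie between 1 kb and 50 kb, far below the limit.

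The length of the members ran from 269 to 8814 bp with a median of 1027 bp (quartiles 711 and 1686 bp), against a median of 557 bp in isolated regions, 1084 bp in shared ones and 901 bp in the whole list. They held from 10 to 2351 tags with a median of 35.5. In all, 31575 tags lay in members, which is 0.258% of the tags used (95% Wilson interval 0.255% to 0.260%), against 0.319% in shared and 0.0336% in isolated regions. The density of members ran from 18.7 to 386.8 tags per kb, with a median of 32.8 (quartiles 26.6 and 40.9). Isolated regions had a median of 24.7 (22.5 and 29.1) and shared regions one of 62.6 (40.6 and 102.1). Members lay between the other kinds in density, nearer to the isolated regions.

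In fold enrichment the order was another. Members had a median of 6.63 (quartiles 5.02 and 9.22), from 2.34 to 31.96. Isolated regions had a median of 8.72 (7.57 and 10.98) and shared regions one of 9.88 (6.90 and 13.54). Taken as members minus isolated regions, the difference was -2.09 in fold enrichment and 8.07 tags per kb in density. Both differences changed when the regions compared were limited. Among regions of at most 557 bp, 52 members had a median fold enrichment of 9.37 and 80 isolated regions one of 9.50, and the densities were 29.5 and 24.7. With the SUN1/2DKO list limited to scores of at least 100 before clusters were formed, 75 regions were clustered and 22 isolated, some of them clustered before, and the difference in density was -6.68 tags per kb. With the list limited in the same way to a fold enrichment of at least 10, 65 were clustered and 61 isolated, and the difference in fold enrichment was 1.00. These medians describe regions of 1 library, and regions of a cluster are not independent of each other.

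**Figure D4:**
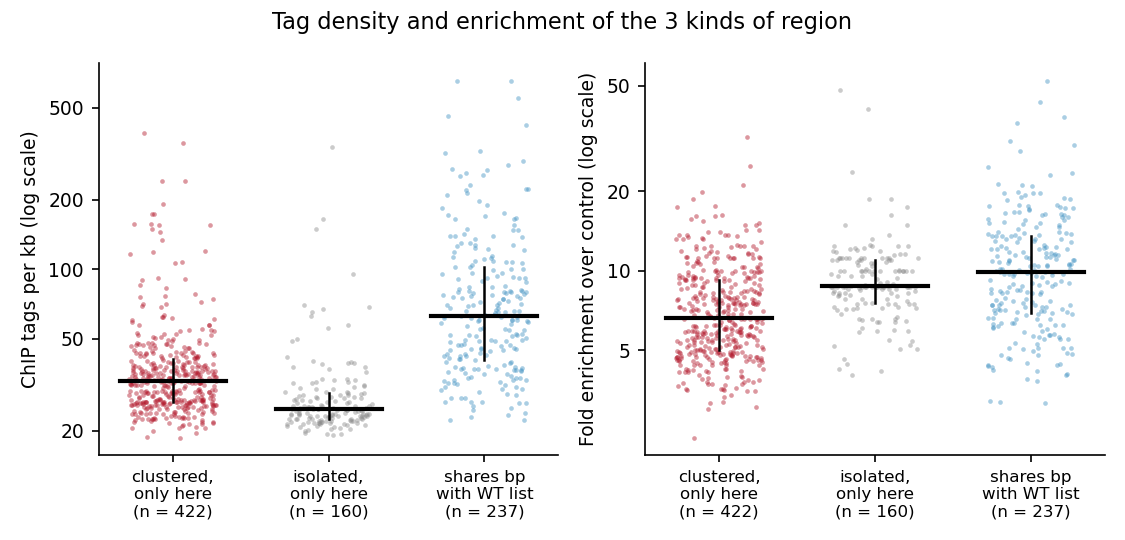
Tags per kb (left, log scale) and fold enrichment over the control (right, log scale) of each region of the SUN1/2DKO-labelled list, by kind. Horizontal bars are medians and vertical bars the quartiles. Clustered regions have a higher median density than isolated ones (32.8 against 24.7) and a lower median fold enrichment (6.63 against 8.72).

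The score, 10 times the negative log10 of the p that the peak caller gave a region, ran from 50.03 to 732.1 in members with a median of 70.0 (quartiles 56.5 and 93.8). The medians were 57.3 in isolated and 146.8 in shared regions. A score of at least 100 was reached by 83 members, 19.7% (95% Wilson interval 16.2% to 23.7%), against 32.8% of all regions of the list, 8.75% of isolated and 72.6% of shared regions. A fold enrichment of at least 10 was reached by 75 members, 17.8% (14.4% to 21.7%), against 29.4% of all regions of the list, 31.9% of isolated and 48.5% of shared regions. Score and fold enrichment come from the same calls that chose the members, so these shares are descriptions only. The FDR that the caller derives from the exchanged comparison was between 0% and 1.85% in members, with a median of 0.86%.

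Within a cluster, the shared regions stood above the members. In the 54 clusters that hold both, the median density of the shared regions was the higher in 48 and the lower in 6, with a median difference of 21.5 tags per kb. The median score was also higher in 48 and lower in 6, by a median of 55.5. Fold enrichment separated the kinds less, with the shared regions higher in 35 clusters and lower in 19, by a median of 0.73. The members were chosen by absence from the list labelled WT, which the calling threshold also sets, so these heights are a description. Among the clusters with the reverse order in density was chr19:27745559-27814935, where 8 members had a median of 32.0 tags per kb and 3 shared regions one of 26.3.

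Density and fold enrichment picked out different members. The 5 members with most tags per kb had fold enrichments of between 4.25 and 5.93. The densest lay on chromosome Y from 13460177 to 13462513, with 904 tags, 386.8 tags per kb and a fold enrichment of 4.94. Its neighbour from 13464320 to 13470982 held 2351 tags, 352.8 tags per kb and a fold enrichment of 4.64. The nearest WT-labelled region of this neighbour, 7898 bp away, held 241.4 tags per kb. Next came 2 adjoining members at chr21:9697992-9701204 and chr21:9695463-9697050, with 241.5 and 240.6 tags per kb and fold enrichments of 4.70 and 4.25. The fifth was at chr2:133014855-133017566 with 192.1 tags per kb and 5.93, and a region labelled WT of 201.2 tags per kb lay 934 bp from it. The nearest WT-labelled region of the first, 3991 bp away, held 37.4 tags per kb, and that of the pair on chromosome 21 lay over 100 kb away. These densest members thus differed in how near a dense region of the other list was.

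The 5 members with the highest fold enrichment were short and held few tags. The highest was chr10:39128504-39129256, with 36 tags in 753 bp, 47.8 tags per kb and a fold enrichment of 31.96. It was followed by the region on chromosome X from 61766766 to 61767205, with 24 tags and 24.83, and by chr19:27792543-27793117, with 20 tags and 21.16. The others were chr5:49475774-49476564 with 21 tags and 19.92, and chr7:62022273-62023036 with 23 tags and 18.67. None of these 5 was among the 5 densest.

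By score, the first member was chr16:33954817-33961195, at 732.1 with 849 tags, 133.1 tags per kb and a fold enrichment of 13.34. A shared region of 325.7 tags per kb lay 1364 bp after it. It was the only one of the 75 members with a fold enrichment of at least 10 that also held at least 100 tags per kb. The next were on chromosome Y from 13445357 to 13451902 (446.4), chr21:10731457-10737030 (268.8), chr1:142894909-142898600 (264.3) and chr1:143532674-143538079 (245.0). These last 3 held only 43.2 to 46.9 tags per kb, but were 5574, 3692 and 5406 bp long.

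Over all members, fold enrichment fell with length (Spearman's rho of -0.64 across 422 regions of 1 library) and weakly with tags per kb (-0.27), and tags per kb rose with length (0.32). In the 160 isolated regions these values were -0.29, 0.01 and -0.03. Fold enrichment and tags per kb share the tag count, and regions of a cluster share their surroundings, so these are descriptions. A density of at least 100 tags per kb was found in 19 members, 4.50% against 10.1% of all regions of the list, spread over 15 clusters, and these held 32.5% of all tags in members. Their median fold enrichment was 4.99, with a range of 2.34 to 13.34. The 75 members with a fold enrichment of at least 10 had a median length of 717 bp and 28.5 tags per kb, against a median length of 1193 bp in the other 347. The part of the control's own density in these fold enrichments was not tested, since the lists give no control tags per region.

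**Figure D5:**
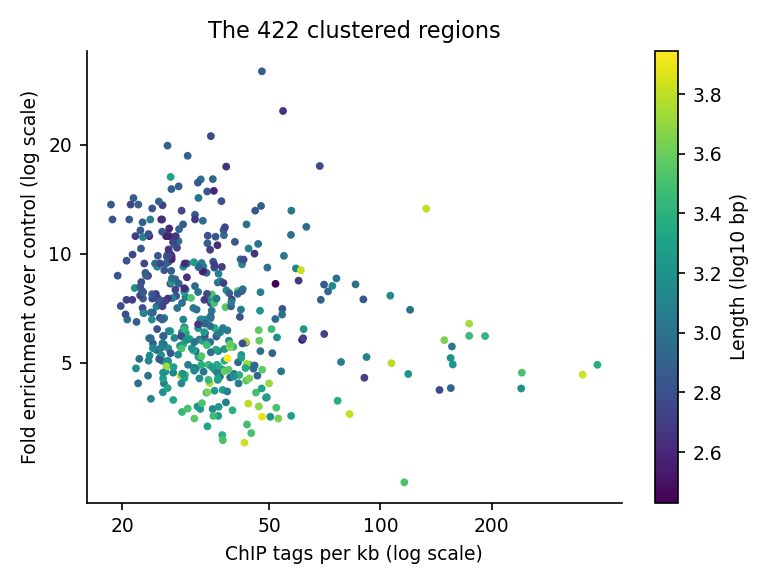
Fold enrichment over the control (vertical axis, log scale) against tags per kb (horizontal axis, log scale) of the 422 clustered regions, coloured by length as log10 bp. The 5 densest members, at the right, have fold enrichments of 4.25 to 5.93, and the 5 with the highest fold enrichment have 26.5 to 54.5 tags per kb.

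The clusters also differed in their medians. Among the 32 clusters with 5 or more members, the median density of the members ran from 25.4 to 50.1 tags per kb. The median fold enrichment ran from 3.86 to 12.45. The lowest was that of chr19:36761082-36799056, where 6 members, the last 4 of them separated by gaps of 28 to 43 bp, had from 39.8 to 57.4 tags per kb. The highest was that of chr11:50649746-50758690, where 7 members had from 19.5 to 45.8 tags per kb. Next came chr19:27745559-27814935 (11.9 over 8 members), chr10:39004397-39137140 (11.2 over 6) and chr7:61989614-62033434 (10.7 over 5). The cluster on chromosome X from 61727673 to 61887246 followed, with a median of 10.29 over 11 members. Those of the cluster at chr21:11031405-11186905 were low, with 4.17 over 13.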

How the data were processed

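ChIP-seq lists of 2 libraries were used, 1 per label. Per the file headers, the authors called regions with MACS 1.4.2 against an input library, with a p cutoff of 1e-05, at most 1 tag per position and the larger dataset scaled to the smaller. The submitters' notes list MACS2 2.1.0, Bowtie 1.1.2 and Trimmomatic 0.33. The authors deposited, for each region, a count of tags, a score, a fold enrichment ratio and, for peaks, an FDR in percent. A low count per region (down to 10 tags) limits the precision of a single density.

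From these, tags per kb, gaps (bp between regions), overlaps of at least 1 bp and clusters were computed with Python 3.11.15, pandas 2.3.3 and scipy 1.17.1, and tested on simulated lists. A cluster is a chain of regions with gaps of at most 100 kb. No test between libraries was possible. The named regions are the 10 clusters with most members, the 5 longest, the 5 members highest in density, fold enrichment and score, and those at the limit. Other clusters named were chosen after their values were seen. The members and lists were chosen with earlier results of these data known. Alternatives were other gap limits, definitions of shared, thresholds, merging and chromosome sets. Those chosen after seeing the data were 1 value per cluster, leaving out chromosome 21 and short regions only.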

Additional observations from a re-analysis of the deposited data

How the results depend on the processing

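With 1 library per label, no replicate could be left out. The number of clustered regions stayed between 322 and 431 under other gap limits, other definitions of shared, merging and the chromosomes named in the mouse, and was 352 without chromosome 21. It was 75 when only regions scoring 100 or more were kept before clusters were formed and 65 when only those enriched 10-fold or more were kept. The difference in median tags per kb, clustered minus isolated regions (8.07), was -6.68 among regions scoring 100 or more, which reverses it, 2.94 among those enriched 10-fold or more, 15.5 with lengths raised to at least 1 kb and 4.80 among regions no longer than the median isolated region. The difference in median fold enrichment (-2.09) was -1.16 with the score limit, -0.13 among those short regions and, reversed, 1.00 with the fold limit. Clusters that hold a shared region (70.1%) made up 54.9% at a gap limit of 10 kb and 83.3% with the fold limit. The share of members in the 10 clusters with most members (39.1%) was 54.7% with the score limit and 58.5% with the fold limit. The thresholds remove most regions and redefine the isolated ones by construction, and the cause of these changes was otherwise not tested. The difference in median tags per kb between clustered and shared regions (-29.8) kept its direction and stayed within 1.5 times its size in all 11 alternatives run for it.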
